A study of Mus musculus with 9 samples.

Results

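Formative pluripotency is the state that mouse embryonic stem cells (mESC) go through as they leave the naive ground state and gain the competence to form germ layers, and 7 genes known for this transition were followed here, namely Fgf5, Otx2, Pou3f1, Sox3, Zic2, Grhl2 and Foxd3. They were chosen by gene symbol from the 29069 genes of the table, and all 7 were present, each with 1 identifier. All 7 passed the minimum mean of 5 normalised counts over the 9 samples, as did 18156 of the 29069 genes, although Fgf5 did so only through 1 medium. Total RNA was sequenced from mESC-D3, an established mouse ES cell line kept without feeder cells, at passages 5 to 8, after 24 h in each of 3 media, with 3 replicates per medium. Ground-state medium (GS) was serum-free N2B27 with 1 μM of the MEK inhibitor PD0325901, 3 μM of the GSK-3 inhibitor CHIR99021 and 20 ng/mL of leukaemia inhibitory factor (LIF). Differentiation medium (DM) was DMEM with 10% fetal bovine serum, without inhibitors or LIF, and NO medium was DM with 250 μM of the nitric oxide donor DETA/NO. GS and DM thus differed in basal medium, serum, LIF and both inhibitors at once, which cannot be told apart, whereas DM and NO differed by the donor. By the study's methods each sample's RNA came from its own dish. Whether the dishes were started from separate cultures or on separate days was not stated, so p-values measure the spread between these dishes.

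In naive cells LIF signalling and the block of MEK hold the naive network in place, and once the MEK inhibitor is removed FGF-ERK signalling helps to dismantle it and to start the formative programme. Otx2 is a homeodomain factor that directs the pluripotency factor Oct4 to new enhancers during the transition, Pou3f1 is a POU-domain factor of the epiblast, and Sox3 is a close relative of Sox2. Zic2 is a zinc-finger factor, Foxd3 is a forkhead factor and Grhl2 is a grainyhead factor that turns on epithelial genes. Fgf5 is a secreted ligand and the classical marker of the epiblast after implantation.

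The genes were located with the GENCODE M21 annotation of GRCm38, in which all 7 are protein-coding. Fgf5 lies at chr5:98254184-98277030 on the plus strand, Otx2 at chr14:48657677-48673819 on the minus strand, Pou3f1 at chr4:124656807-124660655 on the plus strand and Sox3 at chrX:60891366-60893430 on the minus strand. Zic2 lies at chr14:122475435-122479852, Grhl2 at chr15:37233036-37363569 and Foxd3 at chr4:99656299-99658622, each on the plus strand. Exons of 4 of the 7 genes overlap those of another gene. Otx2 shares 154 exonic bases with the opposite-strand lincRNA Otx2os1 and 168 with Gm49154 on its own strand, Pou3f1 shares 330 with Gm2164, Grhl2 shares 169 with Gm16136, and Foxd3 shares 89 with Gm23366. The use of strand in counting was not stated, and reads that overlapped several genes had been excluded, so the levels of these 4 genes are uncertain by the reads of those bases.

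RefSeq promoter windows of GRCm38.p6 were available for 3 of the 7 genes, namely Fgf5, Otx2 and Foxd3. The 250 bases before the start are shown for these 3, since they place the ligand without reads in GS and the most abundant called gene beside the member that was not called. Capitals mark CpG dinucleotides, and each sequence runs 5′ to 3′ on the strand of its gene. The windows are chr5:98253934-98254183 (plus), chr14:48667645-48667894 (minus, the most upstream of 4 RefSeq starts of Otx2) and chr4:99656049-99656298 (plus), and none of the 3 contained an annotated exon. The Otx2 window lies inside the GENCODE extent of the gene (chr14:48657677-48673819), so the outermost GENCODE start was not covered.
Fgf5: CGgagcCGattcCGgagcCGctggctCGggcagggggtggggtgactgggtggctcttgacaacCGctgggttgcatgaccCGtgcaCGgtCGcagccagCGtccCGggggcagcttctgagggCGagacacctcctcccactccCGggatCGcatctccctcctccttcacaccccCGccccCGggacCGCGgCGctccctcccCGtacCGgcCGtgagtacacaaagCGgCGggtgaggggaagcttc
Otx2: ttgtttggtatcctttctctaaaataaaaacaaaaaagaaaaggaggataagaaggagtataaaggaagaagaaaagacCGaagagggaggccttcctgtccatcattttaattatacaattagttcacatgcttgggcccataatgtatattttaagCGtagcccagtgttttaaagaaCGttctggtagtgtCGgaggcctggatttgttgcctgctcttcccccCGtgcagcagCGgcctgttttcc
Foxd3: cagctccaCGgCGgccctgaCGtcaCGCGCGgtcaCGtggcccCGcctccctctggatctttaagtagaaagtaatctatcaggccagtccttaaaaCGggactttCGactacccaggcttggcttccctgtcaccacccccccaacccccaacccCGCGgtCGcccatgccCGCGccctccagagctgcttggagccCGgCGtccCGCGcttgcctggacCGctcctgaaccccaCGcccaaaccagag
The Fgf5 window held 24 CpG dinucleotides at 70.8% GC and the Foxd3 window 21 at 65.6% GC, whereas the Otx2 window held 6 at 42.0% GC. The median of all 32851 RefSeq windows of this length was 52.4% GC. The windows were searched on both strands for 9 short motifs, given with the share of all windows that hold each. These were TAATCC of OTX factors (6.25%), ATGCAAAT of POU factors (1.6%), AACAAT of SOX factors (9.42%), CAGCAGG of ZIC factors (8.44%), TGTTTAC of FOX factors (3.17%), AACCGG of GRHL factors (5.62%), CACCTG, an E-box read by ZEB1 (17.2%), TTCAAAG of TCF/LEF (4.46%) and CCGGAAG of ETS factors (6.91%). None of these letter strings was found in the 3 windows shown. The windows of the other 3 Otx2 starts, which overlap annotated exons by 136 to 250 bases and are not shown for that reason, had 48.4 to 53.6% GC and 8 to 14 CpG dinucleotides. The window at chr14:48665110-48665359 held 1 match, to TAATCC.

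Values are read counts normalised by the authors and rounded to whole numbers. From the spacing of low values, the libraries were estimated to hold 14302054 to 27061091 assigned reads, and 1 read to be worth at most 1.323 normalised counts. Spearman correlations across genes between replicates were 0.986 to 0.989 in GS, 0.979 to 0.991 in DM and 0.958 to 0.985 in NO. NO replicate 2 stood apart on the first principal component (50.3% of the variance), at 131.2 against 25.9 and 67.1 for the other NO samples and -49.1 to -26.0 for GS and DM. The members' values in NO are therefore given also without it. Of the 6 ES cell markers (Pou5f1, Sox2, Nanog, Sall4, Tdgf1, Dppa5a), the summed level was 58207 to 61074 in GS, 55375 to 63140 in DM and 33950 to 55056 in NO. NO replicate 2 had the lowest sum. None of the 6 reached a 2-fold change in any comparison. Nanog had a limma adjusted p of 0.0311 in DM vs GS (log2 fold change -0.80), as Pou5f1 (-0.95, limma adjusted p = 0.0349) and Sall4 (-0.55, limma adjusted p = 0.039) were past the p threshold in NO vs DM. By unadjusted p under 0.05, there were 1, 2 and 4 such markers in DM vs GS, NO vs GS and NO vs DM.

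**Figure D1:**
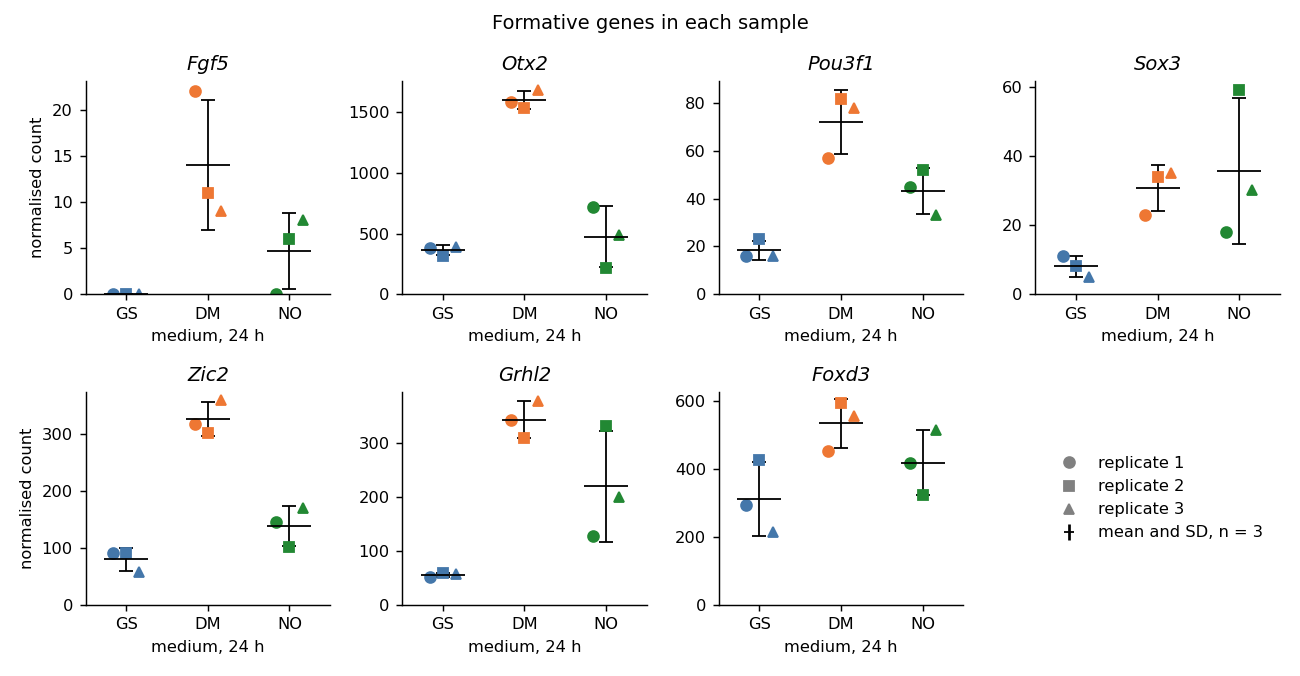
Normalised count (linear axis from 0) of each of the 7 genes in every sample after 24 h in GS, DM or NO, with points for the 3 replicates and a line and bars for mean and SD. Otx2 lies at 1535 to 1685 in DM and at or under 717 elsewhere, whereas NO replicate 2 is the lowest NO sample for Otx2 (219) and the highest for Grhl2 (331) and Sox3 (59).

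After release from GS into DM, 6 of the 7 genes were called higher, and the fold change of the other one, Foxd3, was also positive but was not called. A gene was called when limma gave a Benjamini-Hochberg adjusted p under 0.05 over all tested genes and at least a 2-fold change, on the scale of log2(value + 1). By that rule 2.94% of all tested genes were called higher and 1.27% lower in DM than in GS. The median log2 fold change was 2.05 over the 7 genes and -0.001 over all tested genes. Both the 6 and the 7 include Fgf5, which passed the minimum mean of 5 only through its DM values. It was thus tested only because it was high in DM, and its call held with no minimum mean.

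Otx2 was the most abundant of the 6. It stood at 378, 314 and 392 normalised counts in GS (361.3 ± 41.59, SD, n = 3) and at 1582, 1535 and 1685 in DM (1601 ± 76.72). The DM samples all lay far above the GS samples and close to each other. The log2 fold change was 2.15 ± 0.32 (SE; limma adjusted p = 0.00218), a 4.437-fold difference.

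Grhl2, the epithelial regulator, had the largest log2 fold change among the members detected in GS. Its normalised count was 51, 59 and 57 in GS and 343, 309 and 379 in DM, with no overlap. The log2 fold change was 2.60 ± 0.29 (limma adjusted p = 0.000339). Zic2 stood at 91, 92 and 57 in GS and at 318, 302 and 360 in DM, again without overlap. Its log2 fold change of 2.05 ± 0.25 (limma adjusted p = 0.000625) was near that of Otx2. The calls of Otx2, Grhl2 and Zic2 in DM held under all 21 alternative settings tried for each.

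The POU factor Pou3f1 and the SOX factor Sox3 were present at lower counts. Pou3f1 was at 16, 23 and 16 in GS and at 57, 82 and 78 in DM. All DM samples exceeded all GS samples, and the log2 fold change was 1.93 ± 0.30 (limma adjusted p = 0.00256). Sox3 was at 11, 8 and 5 in GS and at 23, 34 and 35 in DM, also without overlap. Its log2 fold change of 1.85 ± 0.46 had a limma adjusted p of 0.0329, and this call was lost in 9 of 20 alternatives. Among them were the fits without GS replicate 2 or 3, any 1 DM replicate or NO replicate 3, with limma adjusted p from 0.0541 to 0.138. The 9 also include a minimum log2 fold change of 2, which ends any call of this size.

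Fgf5, the ligand, had no reads in GS. Its normalised count was 0 in the 3 GS samples and 22, 11 and 9 in DM, corresponding to an estimated 50 reads over the 3 DM libraries. A count of 0 allows up to 3.18, 2.70 and 3.97 normalised counts in GS replicates 1, 2 and 3, by 3 reads per library, for counting error only. Set against 3 reads over the 3 GS libraries together, the observed DM mean was 13.25-fold that level. This ratio leaves out counting error and replicate spread in DM, so it is not a minimum. The fitted log2 fold change of 3.81 ± 0.81 (limma adjusted p = 0.0159) depends on the pseudocount and is no bound. The call was lost in 4 of 20 alternatives, namely without GS replicate 2 or 3 or DM replicate 1 or 2, with limma adjusted p from 0.0526 to 0.079.

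Foxd3, a forkhead factor already active in naive cells, was the member not called. It stood at 292, 427 and 213 in GS and at 453, 593 and 555 in DM. The DM samples lay above the GS samples, of which replicate 2 came closest. The log2 fold change was 0.83 ± 0.25 with a 95% interval of 0.28 to 1.38 and a limma adjusted p of 0.0769. Without GS replicate 2 it was 1.09 with a limma adjusted p of 0.0347, and the gene was then called.

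**Figure D2:**
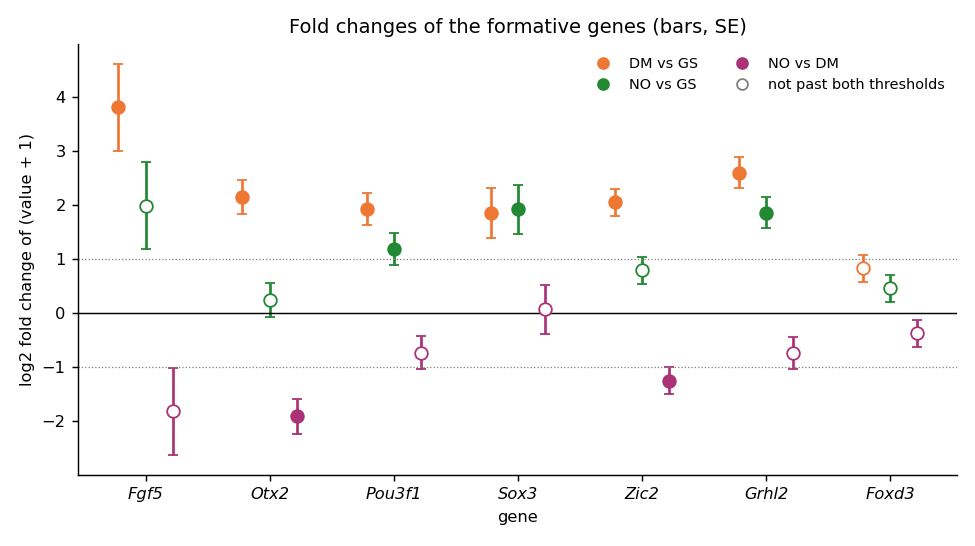
Log2 fold change of (value + 1) of the 7 genes (y axis) in the 3 comparisons, with SE as bars, filled where the gene was past both thresholds and dotted lines at a 2-fold change. In DM vs GS 6 of 7 points are filled, from 1.85 for Sox3 to 3.81 for Fgf5, and in NO vs DM only Otx2 (-1.91) and Zic2 (-1.25) are. Fgf5 passed the minimum mean only through DM.

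In DM with the NO donor, 3 of the 7 genes were called higher than in GS, namely Grhl2, Sox3 and Pou3f1. Among all tested genes 10.1% were called higher and 1.64% lower in NO than in GS. The median log2 fold change was 1.19 over the 7 genes, against -0.02 over all tested genes. This comparison shares its GS samples with that of DM, and its NO samples with the next one.

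Against DM, 2 of the 7 genes were called lower in NO, namely Otx2 and Zic2. Among all tested genes 1.77% were called lower and 6.78% higher in NO than in DM. The median over the 7 genes was -0.74, and that over all tested genes 0.001. By the moderated F test over the 3 media, 6 of the 7 genes differed, as did 23.3% of all tested genes, and the exception was Foxd3 (limma adjusted p = 0.0739).

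Otx2 in NO was far below DM and spread around the level in GS. Its normalised count was 717, 219 and 485 in NO, below every DM sample and on both sides of the GS samples (314 to 392). The log2 fold change was -1.91 ± 0.32 against DM (limma adjusted p = 0.00527) and 0.24 ± 0.32 against GS (95% interval -0.47 to 0.94, limma adjusted p = 0.644). NO replicate 2 lay 1.42 below the mean of the other NO samples on the log2 scale, and without it the difference was -1.44 from DM (limma adjusted p = 0.0012) and 0.71 from GS (limma adjusted p = 0.0214), still under the 2-fold minimum. Without NO replicate 1 the sign against GS turned, to -0.14.

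Zic2 in NO took a place between the other media. Its normalised count was 146, 101 and 171 in NO, above every GS sample (57 to 92) and below every DM sample (302 to 360). The log2 fold change against DM was -1.25 ± 0.25 (limma adjusted p = 0.00987). Against GS it was 0.79 (limma adjusted p = 0.0442), which is under the 2-fold minimum, and without NO replicate 2 it was 1.01 (limma adjusted p = 0.0159) and called. The difference from DM was then -1.04 (limma adjusted p = 0.0222).

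Pou3f1 in NO also lay between the other media, at 45, 52 and 33, without overlap with GS (16 to 23) or DM (57 to 82). It was called higher than in GS, with a log2 fold change of 1.19 (limma adjusted p = 0.0166), a call lost under quantile normalisation (0.73, limma adjusted p = 0.107) and without GS replicate 1 (limma adjusted p = 0.0566) or 3 (0.0613). Against DM the log2 fold change was -0.73 (95% interval -1.38 to -0.08, limma adjusted p = 0.119), and under quantile normalisation it was -1.07 (limma adjusted p = 0.0373) and called. Without NO replicate 2 the values were 1.05 from GS (limma adjusted p = 0.0493) and -0.87 from DM (limma adjusted p = 0.128).

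Grhl2 and Sox3 had their highest NO value in NO replicate 2, which lay 1.04 and 1.31 above the mean of the other NO samples on the log2 scale. Grhl2 stood at 128, 331 and 200 in NO, every sample above GS and replicate 2 within the range of DM. Its log2 fold change against GS was 1.86 (limma adjusted p = 0.0016), and against DM -0.74 (95% interval -1.37 to -0.12, limma adjusted p = 0.102). Without NO replicate 2 the difference from GS was 1.51 (limma adjusted p = 0.00139), and that from DM was -1.09 (limma adjusted p = 0.0142) and called. Sox3 stood at 18, 59 and 30 in NO, above every GS sample (5 to 11) and on both sides of the DM samples. Its log2 fold change was 1.92 against GS (limma adjusted p = 0.0131), lost without GS replicate 3 (limma adjusted p = 0.0575). Against DM it was 0.07 (95% interval -0.92 to 1.07, limma adjusted p = 0.93), and it turned to -0.36 without NO replicate 2, when the difference from GS was 1.49 (limma adjusted p = 0.0424).

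Fgf5 was detected in 2 of the 3 NO samples, at 0, 6 and 8 normalised counts, an estimated 11 reads in all. The limit for the NO sample at 0 was 2.10 normalised counts. Set against 3 reads over the 3 GS libraries together, as for DM, the observed NO mean was 3.463-fold that level. Counting error and replicate spread in NO are left out of this ratio, and the test did not call the gene. Its fitted log2 fold changes were 1.99 against GS (limma adjusted p = 0.104) and -1.82 against DM (limma adjusted p = 0.15). Without NO replicate 1 the former was 2.99 (limma adjusted p = 0.00554), and without NO replicate 2 they were 1.58 and -2.23 (limma adjusted p = 0.274 and 0.164). Foxd3 stood at 418, 322 and 513 in NO and overlapped both other media, with log2 fold changes of 0.46 against GS (95% interval -0.09 to 1.01) and -0.37 against DM (-0.92 to 0.18), neither of them called (limma adjusted p = 0.217 and 0.341). Without NO replicate 2 they were 0.63 and -0.20 (limma adjusted p = 0.128 and 0.712).

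Leaving out NO replicate 2 thus raised the called members from 3 to 4 against GS and from 2 to 3 against DM. Leaving out NO replicate 1 gave 4 members against GS, and leaving out GS replicate 3 gave 1. In NO replicate 2 the summed levels of trophoblast, primitive endoderm and neural crest markers were the highest of the NO samples. Trophoblast markers summed to 124 to 201 in GS, 182 to 230 in DM and 197 to 976 in NO. Of 6 tested, 3 (Krt7, Gcm1 and Hand1) were called higher in NO than in DM, as were 6.78% of all tested genes. Without NO replicate 2 the Krt7 call held (2.86, limma adjusted p = 0.0113), whereas Gcm1 (2.16, limma adjusted p = 0.0756) and Hand1 (1.41, limma adjusted p = 0.152) lost theirs. Over the alternatives the Gcm1 call was lost in 7 of 19 and the Hand1 call in 13 of 19. Gcm1 passed the minimum mean only through NO. Cdx2 of the same list averaged 58.33 in GS, 1.333 in DM and 7.333 in NO, and was called lower than GS in both, although in NO the call was lost without GS replicate 2 (limma adjusted p = 0.0522). Primitive endoderm markers summed to 143 to 205, 111 to 192 and 227 to 708 in GS, DM and NO, and neural crest markers to 108 to 139, 82 to 95 and 103 to 254. Gata6 was called higher in NO than in GS (2.87) and DM (3.13), calls lost in 5 and 4 of 19 alternatives. Pax7 was called higher in NO than in GS (2.45) and DM (2.18), the latter lost in 7 of 19. Pax7 passed the minimum mean only through NO. Twist1 was called higher in NO vs GS (1.42), a call lost in 7 of 19. Neuroectoderm markers, some of which mark cells that also express Otx2, Sox3 and Zic2, summed to 1435 to 1851, 1453 to 1578 and 1115 to 1402. Neurog2 never exceeded 5 normalised counts, and Pax6, at a mean of 4.0 in GS, was called lower in NO than in DM, a call lost in 5 of 19 alternatives. Pax6 passed the minimum mean only through DM. Primitive streak markers summed to 490 to 607, 209 to 251 and 182 to 218 in the same order. T, Gsc and Eomes were called lower than GS in DM (-5.74, -2.46 and -1.06) and in NO (-3.04, -2.67 and -1.47). The Eomes call in DM was lost in 4 of 20 alternatives and the T call in NO vs GS in 1 of 20. T was called higher in NO than in DM (2.70), a call lost in 12 of 20. Mesp1 was called higher in NO than in GS (3.08), lost in 5 of 19, and passed the minimum mean only through NO. Fibroblast markers summed to 93 to 107, 212 to 239 and 209 to 288, and Lum, Foxa2 and Tfap2b were never above 5. Of the 3 fibroblast markers tested, only Thy1 was higher in DM than in GS, with means of 195.7 and 59.33. The log2 fold changes of Col1a1 and Col1a2 in DM vs GS were -0.07 and -0.82, neither of them called. The higher fibroblast sum in DM thus rested on Thy1. In NO, Thy1 (1.47) and Col1a1 (1.49) were called higher than in GS, and Col1a1 also higher than in DM (1.56). Each of the Col1a1 calls was lost in 4 of 19 alternatives. The part of these markers in the levels of the 7 genes was not tested, and in bulk samples fewer cells of a type and less RNA per cell cannot be told apart.

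Per kb of merged exon, the levels of the members differed by more than 1 order of magnitude. In DM the order was Otx2 (379.2 normalised counts per kb), Foxd3 (229.6), Zic2 (113.4), Grhl2 (39.9), Pou3f1 (18.79), Sox3 (14.85) and Fgf5 (5.598), and only Pou3f1 and Sox3 had overlapping ranges among neighbours. Otx2 in DM stood at percentile 81.88 of the 14834 protein-coding genes tested, and Fgf5 at percentile 14.18. In GS Foxd3 came first (133.7 per kb, percentile 60.31) and Otx2 next (85.6, percentile 51.03), with ranges that overlapped. They were followed by Zic2 (27.78), Grhl2 (6.463), Pou3f1 (4.763), Sox3 (3.874) and Fgf5 (0), of which Grhl2 and Pou3f1, and Pou3f1 and Sox3, overlapped. In NO the order was Foxd3 (179.7), Otx2 (112.2), Zic2 (48.38), Grhl2 (25.5), Sox3 (17.27), Pou3f1 (11.26) and Fgf5 (1.866), and all neighbours but the last pair overlapped.

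**Figure D3:**
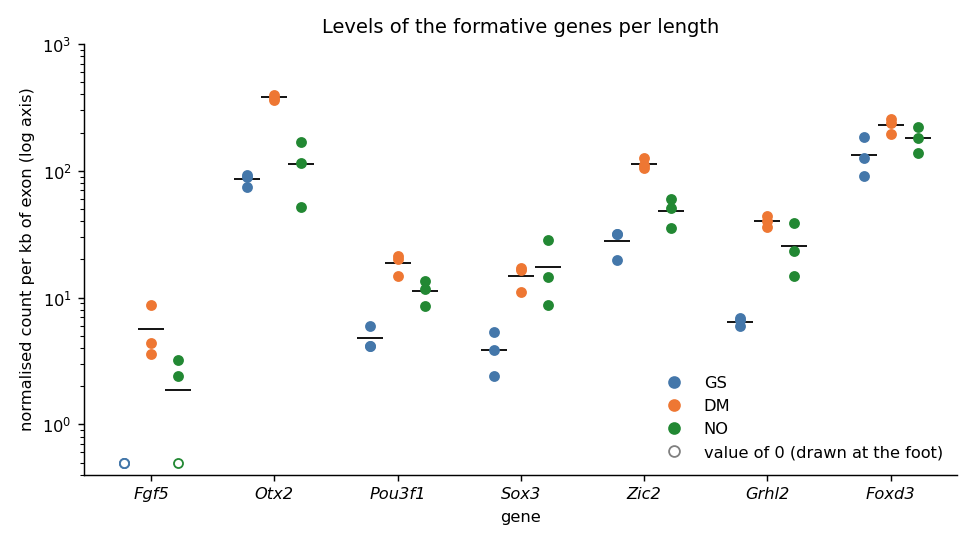
Normalised count per kb of merged exon (log axis) of the 7 genes in the 3 replicates of each medium, with a line at the mean and open symbols at the foot for values of 0. Otx2 heads the order in DM (379.2) and Foxd3 that in GS (133.7) and NO (179.7), whereas Fgf5 is last in each medium.

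Genes with the most similar profile over the 9 samples were sought among 14933 protein-coding genes, by the root-mean-square (RMS) difference of the centred log2 profiles. Closest to Otx2 were Pdzd4 (0.16), Ankrd34a (0.18) and Foxr2 (0.18), and Pdzd4 averaged 572.7 in GS, 2548 in DM and 808.7 in NO. Closest to Zic2 were Itga9 (0.18), Ppm1j (0.21) and Kirrel2 (0.22), and to Pou3f1 Epas1 (0.17), Igsf9 (0.23) and Adamtsl1 (0.24). Sox3 was most like Oxct2a (0.22), Sema3e (0.24) and Ntrk2 (0.24), Grhl2 was most like Slc7a7 (0.29), Calca (0.30) and Mctp2 (0.32), and Foxd3 was most like Ap5b1 (0.17), Tsks (0.18) and Cpsf4l (0.18). No gene was as close to Fgf5, with Tgm3 at 0.90, Kcnk12 at 0.93 and Tmem154 at 0.94. Among the members, Otx2 was nearest to Zic2 (0.47), and Sox3 to Grhl2 (0.50).

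Other genes of the same chromosomal neighbourhoods were read within 50 kb of the 7 genes. Of 31 annotated neighbours 18 were in the table and 9 were tested. In DM vs GS 3 of the 9 were called, each of them higher and each beside Otx2 or Zic2, against 2.94% of all tested genes called higher. Otx2os1, the lincRNA antisense to Otx2 (RP23-131O4.2 in the table), stood at 11, 6 and 9 in GS, at 26, 20 and 26 in DM and at 10, 10 and 13 in NO, and was called in DM vs GS (limma adjusted p = 0.0464). That call was lost in 10 of 19 alternatives, among them the replicate block (limma adjusted p = 0.074) and the removal of any 1 GS or DM replicate or of NO replicate 3. Since reads that overlapped several genes were excluded, reads in the shared bases may be missing from both genes if counting ignored strand. Zic5, a zinc-finger paralog 9758 bases from Zic2, averaged 119.0, 302.7 and 136.3, and 2610035F20Rik, a transcript 236 bases from Zic2, averaged 4.33, 23.3 and 6.67. Zic5 differed by 1.34 ± 0.33 in DM vs GS (limma adjusted p = 0.0309) and by -1.25 ± 0.33 in NO vs DM (limma adjusted p = 0.0277). 2610035F20Rik differed by 2.20 ± 0.52 (limma adjusted p = 0.0283) and -1.88 ± 0.52 (limma adjusted p = 0.0359). These 4 calls were fragile. Removal of any 1 GS or DM replicate ended both calls in DM vs GS, and removal of any 1 DM replicate or of NO replicate 3 ended both in NO vs DM. Without NO replicate 2 the Zic5 difference was -0.82, under the 2-fold minimum, and without NO replicate 1, GS replicate 1 or GS replicate 2 the 2610035F20Rik call in NO vs DM was lost. None of the 9 was called by limma in NO vs GS, where 2 had an unadjusted p under 0.05. Gm12688, a lincRNA 1316 bases from Foxd3, averaged 57.7, 85.0 and 67.0 and was not called.

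Paralogs of the members had a median log2 fold change near that of all tested genes in DM vs GS, at -0.01 over the 12 of 18 that were tested. Zic5, given above with its neighbour Zic2, was called higher in DM than in GS. Zic1 was called higher in NO than in DM (2.61, limma adjusted p = 0.0324), from a mean of 1.667 to 21.33 normalised counts. It stood at 42 in NO replicate 2, without which it was not called (1.89, limma adjusted p = 0.125). The call was lost in 10 of 19 alternatives, among them those without any 1 DM replicate or NO replicate 3. Zic1 passed the minimum mean only through NO. Sox2 and Sox1, the relatives of Sox3, and Fgf4, the main FGF of ES cells, were not called by limma in any comparison, and 0 of the 3 had an unadjusted p under 0.05.

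Of 16 further formative and primed epiblast genes, 5 were called higher and none lower in DM vs GS, with a median log2 fold change of 0.61. Among all tested genes the shares were 2.94% and 1.27%. Dnmt3a, a de novo DNA methyltransferase, averaged 1086 in GS and 4137 in DM (1.93 ± 0.16, limma adjusted p = 8.54e-05), and Utf1, a chromatin factor of pluripotent cells, averaged 895.3 and 4048 (2.18 ± 0.32, limma adjusted p = 0.00198). Etv4, an ETS factor downstream of FGF, and Rbpj, the Notch effector, were called with 1.48 and 1.06 (Rbpj 0.97 without DM replicate 1, under the 2-fold minimum), and the ligand Fgf15 was the fifth, a call lost without GS replicate 2 or 3 or any 1 DM replicate (limma adjusted p from 0.0505 to 0.0569). In NO vs DM 5 were called lower, among them Dnmt3a (-1.51), Utf1 (-1.59), the Wnt effector Lef1 (-2.75) and Fgf15 (-2.41), and Wnt8a was called higher (2.58), a call lost in 3 of 20 alternatives, among them that without DM replicate 3 (limma adjusted p from 0.0516 to 0.0525). The median there was -0.58, and 1.77% of all tested genes were called lower and 6.78% higher. In NO vs GS 1 was called higher, Wnt8a (2.35), and 1 lower, Lef1 (-1.73), with a median of -0.00. Among all tested genes 10.1% were higher and 1.64% lower there. The Lef1 call was lost without GS replicate 1 or 2 and the Wnt8a call without GS replicate 1 or 3, with limma adjusted p up to 0.0608.

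Of 13 naive pluripotency genes, Tfcp2l1 and Dppa3 were called lower than GS in both DM and NO, and Nr0b1 was called higher in DM vs GS. Among all tested genes 1.27% were called lower in DM and 1.64% in NO, and 2.94% higher in DM. Below the 2-fold minimum, Nanog (-0.80, limma adjusted p = 0.0311) and Nr5a2 (-0.60, limma adjusted p = 0.0198) were also past the p threshold in DM vs GS. So was Nr5a2 in NO vs GS (-0.62, limma adjusted p = 0.00842). The Dppa3 call in DM vs GS was lost in 7 of 20 alternatives, among them those without any 1 GS replicate or DM replicate 2 or 3, with limma adjusted p up to 0.131. Tfcp2l1, a LIF target of the naive network, averaged 31050 in GS, 11300 in DM and 13320 in NO. Over the list, the median log2 fold change was -0.53 for DM vs GS. It was -0.37 for NO vs GS. In NO vs DM it was -0.02, where limma called none of the 13. Below the 2-fold minimum, Nr0b1 (-0.90, limma adjusted p = 0.0201) and Tbx3 (0.47, limma adjusted p = 0.0383) were past the p threshold there. An unadjusted p under 0.05 was found for 10, 7 and 5 of the 13 in DM vs GS, NO vs GS and NO vs DM.

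FGF-ERK genes, whose feedback inhibitors rise with pathway activity, were called in part. Of 11, 4 were called higher in DM vs GS (Dusp6, Spry4, Dusp4 and Myc) and 4 in NO vs GS (Dusp6, Dusp4, Fos and Spry4). The medians were 0.75 and 0.77, beside 2.94% and 10.1% of all tested genes called higher. Dusp6, a phosphatase of ERK, averaged 398.7 in GS, 2013 in DM and 1418 in NO. In NO vs DM, Spry4 was called lower (-1.23 ± 0.28, limma adjusted p = 0.0156) and Fos higher (1.96 ± 0.43, limma adjusted p = 0.0142), with a median of -0.25. This Spry4 call was lost without NO replicate 2 (-0.99) or without DM replicate 2, its call in NO vs GS without GS replicate 1 (0.98), and the Fos call without DM replicate 2 (limma adjusted p = 0.0501).

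Among 10 epithelial genes known as GRHL2 targets, Esrp1 and Cldn6 were called higher than GS in both DM and NO, with medians over the list of 0.29 and 0.67, beside 2.94% and 10.1% of all tested genes called higher. The Cldn6 call in DM was lost without GS replicate 2 or 3 (limma adjusted p = 0.0525 and 0.0554). The Esrp1 call in NO vs GS was lost under quantile normalisation (0.73, limma adjusted p = 0.0876) and without NO replicate 1 (0.99). Esrp1, an epithelial splicing factor, averaged 47.67 in GS, 275.3 in DM and 106.7 in NO, and was called lower in NO vs DM (-1.36 ± 0.25, limma adjusted p = 0.00752). Cldn4, a tight-junction protein, was called higher in NO vs DM (1.05 ± 0.26, limma adjusted p = 0.0249), a call lost in 6 of 20 alternatives, among them those without NO replicate 2 (0.74, limma adjusted p = 0.063) or 3, or DM replicate 1 or 2. The median there was 0.26.

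**Figure D4:**
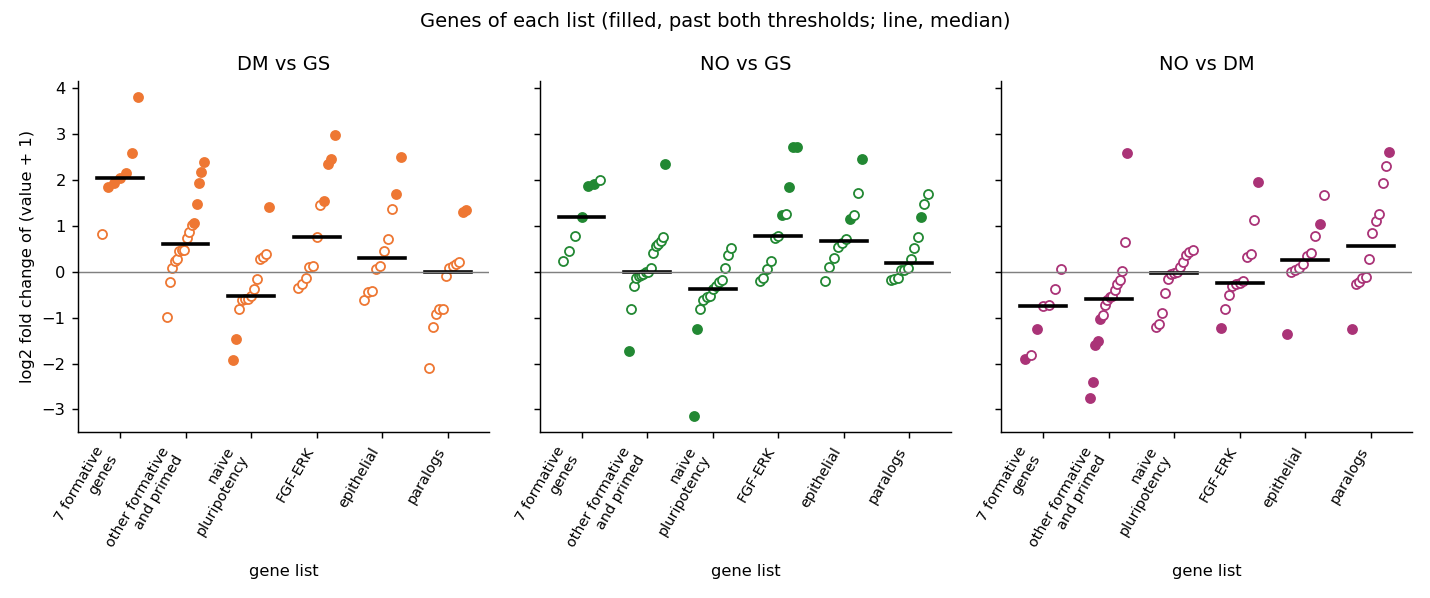
Log2 fold change of (value + 1) of each tested gene of 6 lists (x axis) in the 3 comparisons, filled where past both thresholds, with a line at the median. The 7 formative genes have the highest median in DM vs GS (2.05) and the lowest in NO vs DM (-0.74) of the 6 lists.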

How the data were processed

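Total RNA-seq of 9 samples was used. Samples were assigned to media by their labels. Per the study's methods, ribosomal RNA was removed and libraries were run on an Ion Torrent Proton. The authors aligned reads with STAR 2.4.0a to GRCm38 and counted them over exons with featureCounts 1.4.5-p1. The deposited values are a normalised score, namely counts divided by a DESeq2 size factor and rounded by the authors, so no count model was fitted. A column of sums over samples (1 column) was not used. Values were tested as log2(value + 1) with limma 3.58.1 in R 4.3.3, with a mean-variance trend, all 9 samples in one fit, a mean above 5, adjusted p under 0.05 and at least 2-fold, two-sided. The procedure was tested on simulated data. Fold changes on this scale are understated for genes with few reads. Depth was estimated from the spacing of low values, and limits for counts of 0 were set at 3 reads.

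All members were named, and up to 4 called genes per list and comparison, smallest adjusted p first. Overlapping exons and the 3 closest profiles per member were also named. Genes within 50 kb, Fgf15 as the fifth call and genes past the p threshold alone were named after their values were seen. So were Sox1, Sox2, Fgf4, Col1a2 and, in DM vs GS, Col1a1. Members and lists were chosen with earlier results of these data known. The labels number the replicates 1 to 3 in every medium. Deviations of same-numbered samples from their group means correlated at 0.16 to 0.30 in NO vs DM, so the numbers may pair those samples. The main fit had no block, so its NO vs DM values ignore any such pairing. The block was tried as an alternative. The alternatives are given with their effect at the close. Of 29069 identifiers, 98.2% were found in GENCODE M21, whose release may differ from the authors'. A result for the paralog list is not reported here.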

Additional observations from a re-analysis of the deposited data

How the results depend on the processing

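With 3 replicates per medium, single samples decided several calls. Over the 7 genes, the 3 comparisons and their alternatives, 399 of 432 values kept direction and side of the threshold, 23 fell short of it, 6 passed it and 4 reversed. The reversals were Otx2 in NO vs GS without NO replicate 1 (-0.14), and Sox3 in NO vs DM under quantile normalisation (-0.28), without DM replicate 1 (-0.11) and without NO replicate 2 (-0.36), none of them called. Leaving out each sample in turn gave -0.14 to 0.71 for the former and -0.36 to 0.47 for the latter. For 37 other named genes, 1202 of 1404 values kept their call or its absence, 200 fell short, 2 passed the threshold and 0 reversed.

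Counts of called members moved with the thresholds. A minimum mean of 50, under which 4 of the 7 genes were tested, gave 3 members for DM vs GS and 1 for NO vs GS. A minimum log2 fold change of 2 gave 0 in both comparisons with NO. Leaving out 1 sample in turn gave 4 to 6, 1 to 4 (1 without GS replicate 3) and 2 to 3 members in DM vs GS, NO vs GS and NO vs DM.

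Across DM vs GS, NO vs GS and NO vs DM, all called genes numbered 763, 2127 and 1552, and they were 505, 1206 and 936 with a minimum mean of 50. With no minimum fold change they were 1215, 3640 and 2587, and with a minimum log2 fold change of 2 they were 242, 926 and 660. With only the 6 samples compared, NO vs DM gave 912. Leaving out 1 sample in turn gave 806 to 2512 in NO vs DM, the highest without NO replicate 1 and the lowest without NO replicate 2, and 2569 to 5705 genes by the F test, of 4227. The cause was not tested.

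Quantile normalisation shifted the median of all genes in NO vs GS to -0.115. It changed the split of higher to lower calls from 1830 and 297 to 1304 and 629 for NO vs GS, and from 1231 and 321 to 959 and 514 in NO vs DM. With the replicate number as a block, 674, 2085 and 1553 genes were called, and 3846 by the F test. The block left the called members at 6, 3 and 2, and among other named genes it ended the call of Otx2os1 given above. For DM vs GS and NO vs GS same-numbered samples correlated at -0.23 to 0.02 and -0.11 to 0.05, so there the block is only a shared number.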
